A study of Mus musculus with 12 samples.

Results

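L803mts, a peptide inhibitor of glycogen synthase kinase 3 (GSK3), was compared with vehicle in mouse hippocampus, across every named locus with a mean level of at least 1 FPKM over the 6 libraries of the comparison. FPKM, fragments scaled to transcript length and to the mapped fragments of the library, is the authors' measure of RNA level per length. The rule kept 15356 members of the 17394 loci in the authors' table. It left out 1242 loci without a name and 796 named loci under the threshold. The members carried 13376 distinct names, since a gene can be split into several loci, and 11785 of them were typed as protein-coding in the table. Just inside the threshold lay Itpr3 at a mean of 1.0006 FPKM, Slc16a13 at 1.0011 and Irak4 at 1.0012. Just outside lay Wnt3 at 0.9988 FPKM, Gkn3 at 0.9981 and Gen1 at 0.9979.

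Mice of the strain C57BL/6 in the L803mts group received 60 µg of the compound through the nose, in 5 µL to each nostril and on alternate days over 3 days, and control mice received vehicle by the same route, volume and schedule. There were 3 hippocampal libraries in each group. The treatment protocol in the labels spells the compound L808mts where titles and sample tags spell it L803mts. Whether each library came from a separate mouse is not stated, so a p-value measures the spread between these libraries, which may be technical.

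GSK3α and GSK3β are serine/threonine kinases that are active in resting cells and are held back by phosphorylation through AKT and related kinases. In a complex with axin and APC, GSK3 phosphorylates β-catenin and so marks it for degradation. When the kinase is inhibited or WNT ligands bind their receptors, β-catenin can enter the nucleus and act with TCF and LEF factors on target genes. L803mts is a myristoylated phosphopeptide that competes with the kinase's substrates. It acts on the enzyme and not on the Gsk3a or Gsk3b mRNA, so those mRNAs are no check of the treatment.

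Stretches of 3 promoters are shown because Sgk1, Egr2 and Dusp5 are among the members with non-overlapping groups described below, and because words known for the β-catenin partners TCF and LEF or for serum response factor lie in them. The bases are RefSeq sequences of the build GRCm38.p6, written 5′ to 3′ on the strand of the gene, and capitals mark the matched words. The TCF and LEF words searched on both strands were CTTTGAA and the same word with AT, TA or TT as its last letters, and serum response factor was searched by its CArG box. The windows ran from 250 bases before to 50 bases after a start.
Sgk1, chr10:21978468-21978533, plus strand: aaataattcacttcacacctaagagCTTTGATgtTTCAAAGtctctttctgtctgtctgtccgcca
Egr2, chr10:67537469-67537528, plus strand: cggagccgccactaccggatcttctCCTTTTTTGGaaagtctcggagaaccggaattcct
Dusp5, chr19:53529038-53529107, plus strand: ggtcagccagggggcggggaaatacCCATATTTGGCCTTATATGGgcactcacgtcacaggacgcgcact

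The Sgk1 stretch holds 2 words that begin at positions -179 and -170 from the start, at 1 of the gene's 6 listed starts. A TCF or LEF word was found in 16.9% of all 32851 promoter windows and at 18.9% of the 27025 gene symbols, several of which have more than 1 window. A CArG box was found in 1.63% of windows and at 1.81% of symbols. Of the 15 genes of smallest p that were higher with L803mts, 11 matched a promoter by symbol and 2 of those, Sgk1 and Atp2b2, held a TCF or LEF word. None of the 12 matched genes on the lower side held one. Among 13 activity-induced members that were higher with L803mts and had non-overlapping groups, 5 matched a promoter and 2 of those, Egr2 and Dusp5, held a CArG box. The 3 stretches were chosen after the values and the matches were seen, and the matches describe the letters in the windows only.

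No member passed the test. Limma's moderated test on log2(FPKM + 1), with Benjamini-Hochberg adjustment over all 17394 loci, called 0 members at an adjusted p of at most 0.05, so the share called was 0% of 15356. The smallest adjusted p was 0.221. At an unadjusted p under 0.05 there were 921 members, or 6.00%, of which 541 were higher with L803mts (3.52% of members) and 380 were lower (2.47%). Over loci of at least 5 FPKM the split was 289 higher and 306 lower. The 3 values of each group did not overlap at 896 members that were higher with L803mts (5.83%) and at 1035 that were lower (6.74%). These shares of all members are the background for the counts in each gene list below. With 3 against 3 libraries an exact permutation test cannot go below p = 0.1, so none was run on single genes.

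Differences are given as L803mts minus control on log2(FPKM + 1), a scale that understates the change of low loci. The median difference over the members was -0.02, with the 5th percentile at -0.33 and the 95th at 0.46. A member's difference had a median standard error of 0.17. There were 111 members with a difference of at least 2-fold on this scale, 89 of them higher with L803mts and 22 lower. In 37 of these the groups also did not overlap, 27 on the higher and 10 on the lower side.

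**Figure D1:**
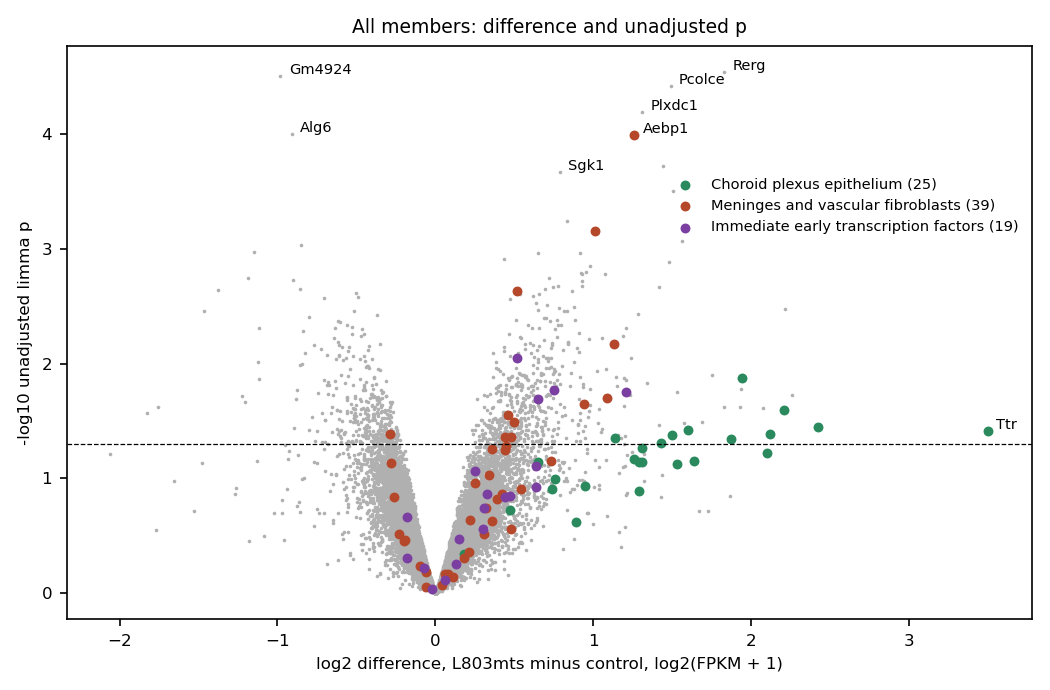
Each grey point is a member, with its log2 difference (L803mts minus control) on the horizontal axis and -log10 of its unadjusted limma p on the vertical axis. Coloured points are members of 3 gene lists, and the dashed line marks an unadjusted p of 0.05. Choroid plexus genes reach the largest differences, 3.50 at Ttr, at modest p, while Rerg, Pcolce and Gm4924 have the smallest p.

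The libraries differed in ways that the groups do not give. Median FPKM lay between 9.48 and 9.78, but a single locus held between 43.2% and 84.5% of a library's FPKM sum. L803mts replicate 3 stood apart: it was the highest of the 6 libraries at 23.7% of members and the lowest at 27.1%, and it loaded at 0.82 on the first principal component, which held 31.7% of the variance. The second component, with 24.4%, put control 1 at -0.53 and controls 2 and 3 at 0.58 and 0.47. Y-linked Uty and Eif2s3y were measured in every library, between 52.3 and 68.1 FPKM for Uty. The 13 mitochondrially encoded genes listed had no measured locus. Neurod6, a transcription factor of pyramidal neurons, was abundant in all libraries. It had 899.6, 983 and 940.3 FPKM in L803mts libraries and 1112, 1077 and 1236 FPKM in control libraries.

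Leaving out single libraries ended the absence of calls in 5 of 6 fits. Without control 1 there were 22 calls, all higher with L803mts, and 10 of them were choroid plexus genes of the list described below. Among the other calls was Igfbp2, which the choroid plexus also makes but which that list leaves out. Without L803mts 1 there was 1 call, Endog, which was listed at 0, 5.56 and 7.38 FPKM in L803mts libraries and at 0 in all 3 control libraries. Without L803mts 2 the single call was Setd1b at a locus of 385 bases, listed at 5.60, 0 and 5.75 FPKM with L803mts and at 0 in the controls. Without control 2 it was Pik3r6, listed at 0 in the 3 L803mts libraries and at 5.21, 0 and 5.21 FPKM in the controls. Without control 3 it was Gps1, with 7.78, 12 and 7.98 FPKM against 0, 0 and 8.30 FPKM. Without L803mts 3 there were 0 calls. Each of these 4 single calls rests on a locus that switches between 0 and a few FPKM among libraries of 1 group.

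GC content moved with the direction of a member. Of the 11785 protein-coding members, 10598 (89.9%) matched a GENCODE M21 transcript by symbol and were divided into 3 equal groups by the GC content of that transcript. In the high GC group, with a median GC of 56.2%, 245 members were higher with L803mts and 48 lower at an unadjusted p under 0.05 (6.93% and 1.36%). In the low GC group, with a median GC of 43.4%, 64 were higher and 111 lower (1.81% and 3.14%). The shift was largest in L803mts 3, where the median deviation from a gene's mean over 6 libraries was 0.15 in the high GC group and -0.14 in the low one. Control 1 went the other way, with -0.13 and 0.08, and so did L803mts 2 and control 2, each with -0.07 and 0.04. L803mts 1 had 0.06 and -0.02 and control 3 had 0.07 and 0.00, so neither group shifted as one. Equal groups by transcript length differed less, with 4.25% higher and 1.42% lower among the longest and 3.14% each way among the shortest. The part of GC content in the results that follow was not tested.

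**Figure D2:**
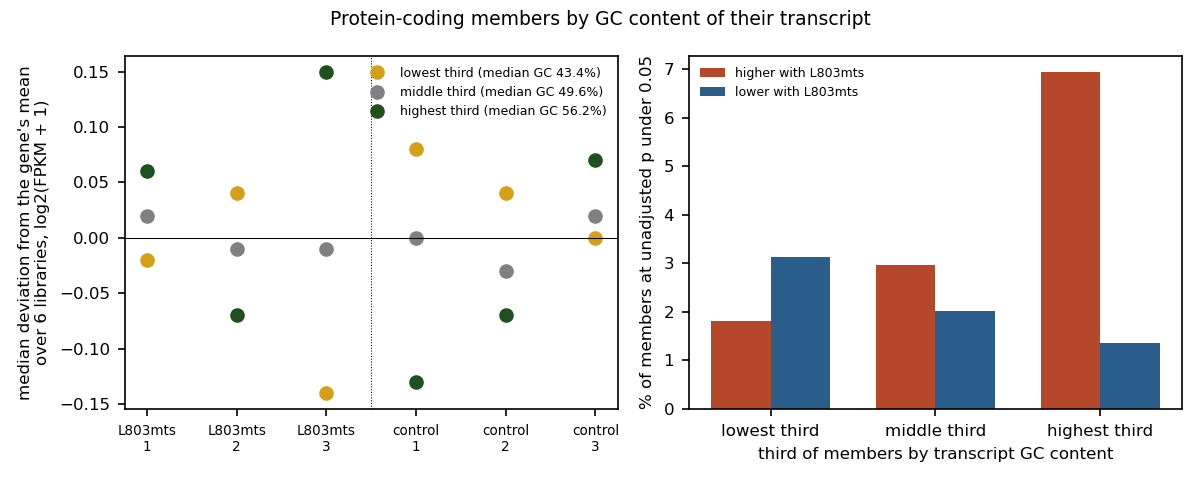
The left panel gives, for each library, the median deviation of protein-coding members from their own mean over the 6 libraries, on log2(FPKM + 1), in 3 equal groups by transcript GC content. The right panel gives the share of each group at an unadjusted p under 0.05 in each direction. The high GC group reaches 6.93% higher with L803mts, against 1.81% in the low GC group, and L803mts 3 and control 1 lie furthest apart.

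Rerg, which encodes a small RAS-like GTPase regulated by estrogen, led the members that were higher with L803mts. Its level was 21, 18.6 and 34.6 FPKM in L803mts libraries, against 5.49, 6.27 and 6.28 FPKM in control libraries. The groups lay far apart, with replicate 3 the highest, and the difference was 1.83 (standard error 0.22, limma unadjusted p = 2.83e-05, adjusted p = 0.221). Leaving out any 1 library kept it between 1.57 and 2.0. The locus lies at chr6:137003433-137113623 of the build NCBIM37.

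Pcolce, an enhancer of procollagen C-proteinase, had 13.7, 12 and 16 FPKM with L803mts and 5.34, 4.39 and 3.28 FPKM in controls, a difference of 1.49 (standard error 0.19, limma adjusted p = 0.221). Aebp1, a secreted collagen-binding protein, had 6.72, 5.82 and 8.79 FPKM with L803mts and 2.30, 2.22 and 2.56 FPKM in controls, a difference of 1.26 (adjusted p = 0.296). Fmod, the collagen-binding proteoglycan fibromodulin, had 3.80, 3.45 and 4.20 FPKM with L803mts and 1.52, 1.76 and 0.941 FPKM in controls. In each of the 3 genes every L803mts library lay above every control library. Plxdc1, a transmembrane protein first described in tumour endothelium, had 5.11, 5.43 and 5.61 FPKM with L803mts and 1.16, 1.74 and 1.9 FPKM in controls, with a difference of 1.31 (adjusted p = 0.277). Acta2, the smooth muscle actin of vessel walls, had 19, 25.1 and 23.3 FPKM with L803mts and 14, 14.2 and 13.4 FPKM in controls. These groups did not overlap either, and the Acta2 difference was 0.65 (adjusted p = 0.764). In tissue RNA, a change in the number of cells of a type and a change in RNA per cell cannot be told apart. This holds here and in the cell type lists that follow.

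Sgk1 encodes a kinase related to AKT that is induced by glucocorticoids and can phosphorylate GSK3, and its promoter stretch is printed above. It had 41.7, 33.8 and 35.7 FPKM in L803mts libraries and 22.7, 21.5 and 18.9 FPKM in control libraries. Values within a group were close together and the gap between groups was wider than either range. The difference was 0.79 (standard error 0.13, limma unadjusted p = 2.11e-04, adjusted p = 0.460) and stayed between 0.70 and 0.85 when any 1 library was left out. Cdkn1a, the cell cycle inhibitor p21, had 1.76, 1.67 and 2.32 FPKM with L803mts and 0.413, 0.708 and 0.517 FPKM in controls. Itpk1, an inositol phosphate kinase, had 34.0, 28.0 and 38.5 FPKM with L803mts and 20.4, 15.5 and 19 FPKM in controls. Both genes had non-overlapping groups and a limma adjusted p of 0.764.

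The other members of the 15 smallest p on the higher side were of mixed kinds. Galnt10, which starts mucin-type O-glycosylation, averaged 6.81 ± 0.492 FPKM with L803mts and 1.85 ± 1.41 FPKM in controls (SD, n = 3 each). Minos1, a subunit of the complex that shapes mitochondrial cristae, averaged 88.7 ± 2.95 FPKM with L803mts and 65.3 ± 2.45 FPKM in controls. Suv420h2, a histone H4 lysine methyltransferase, averaged 9.68 ± 1.63 FPKM with L803mts and 4.47 ± 1.20 FPKM in controls. Their differences were 1.56, 0.44 and 0.98. The loci for Klhl29 and Renbp were 360 and 464 bases long, and the one for Atp2b2, which encodes a plasma membrane calcium pump, was typed as mixed. Values at such short or mixed loci need not speak for the whole mRNA.

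On the lower side the smallest p belonged to Gm4924, which had 7.42, 7.49 and 7.02 FPKM with L803mts and 15.2, 15 and 16.1 FPKM in controls. The spread within each group was small beside the difference of -0.98 (standard error 0.12, limma unadjusted p = 3.08e-05, adjusted p = 0.221). Alg6, a glucosyltransferase of N-glycan assembly, was measured at a locus of 126 bases with 216, 276 and 269 FPKM in L803mts libraries and 438, 525 and 465 FPKM in control libraries. The groups were well separated, and the difference was -0.91 (adjusted p = 0.296). Ppih, a spliceosomal cyclophilin, had 3.65, 3.98 and 5.62 FPKM with L803mts and 12.1, 7.69 and 13.7 FPKM in controls. Dazap1, an RNA-binding protein of mRNA processing, had 10.8, 9.96 and 15.9 FPKM with L803mts and 19.2, 23.4 and 28.0 FPKM in controls. Neither pair of groups overlapped, and both genes had an adjusted p of 0.764.

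Several lower members were parts of genes and not whole mRNAs. An intronic locus in Kcnd2, a potassium channel gene, had 24.9, 30.8 and 31.1 FPKM with L803mts and 41.9, 40.3 and 41.5 FPKM in controls. An intronic locus of Csmd1 had 269, 259 and 251 FPKM with L803mts and 328, 417 and 356 FPKM in controls. The Cnksr2 member of small p was a mixed locus of 1524 bases with 3.05, 4.4 and 4.01 FPKM with L803mts and 7.78, 8.39 and 6.83 FPKM in controls. At the main Cnksr2 locus, whose product is a postsynaptic scaffold, the level was far higher and the groups overlapped, with 131, 149 and 170.3 FPKM with L803mts and 143, 162 and 180.1 FPKM in controls. Also among the 15 were mixed loci of Ankrd28 and 2310046A06Rik and the genes Sap30bp, Pdia5, Cep57l1 and 4430402I18Rik, with differences between -1.46 and -0.37. The Sap30bp locus was 359 bases long.

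**Figure D3:**
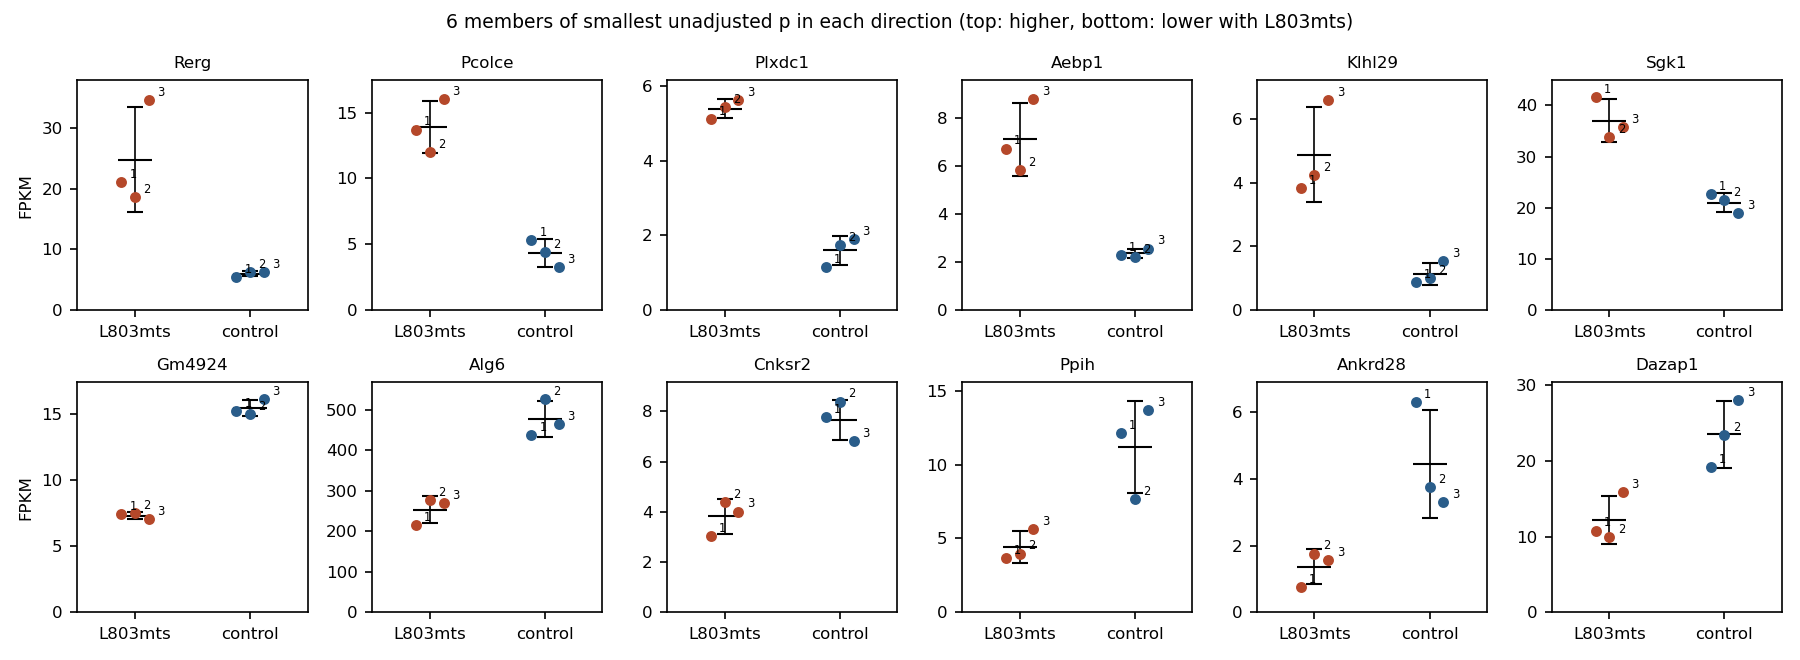
FPKM by library (points, numbered by replicate) with the mean and SD of each group, for the 6 members of smallest unadjusted p that were higher with L803mts (top row) and the 6 that were lower (bottom row). Each vertical axis starts at 0. Every L803mts value lies above every control value in the top row, such as 33.8 to 41.7 FPKM against 18.9 to 22.7 FPKM at Sgk1, and below it in the bottom row. None of the 12 passed the adjusted test.

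The kinase and its own complex differed little. Gsk3a had 20.6, 17.7 and 21.2 FPKM with L803mts and 16.9, 17.2 and 21 FPKM in controls, a difference of 0.11 with a 95% interval of -0.20 to 0.41. Gsk3b was measured at a locus of 4228 bases with 17.3, 18.2 and 22.2 FPKM with L803mts and 18.1, 17.5 and 18.1 FPKM in controls, a difference of 0.09 with an interval of -0.20 to 0.38. Ctnnb1, which encodes β-catenin, had 150.1, 145 and 128 FPKM with L803mts and 145, 133 and 166 FPKM in controls, and its difference of -0.07 had an interval of -0.34 to 0.20. Groups overlapped at all 3 genes. Of the 12 members among GSK3 and destruction complex genes, 0 reached an unadjusted p under 0.05 and the median difference was 0.07.

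Axin2, a feedback inhibitor and widely used target of β-catenin, could be read only jointly with Ccdc46. That locus had 45.3, 33.0 and 40.7 FPKM with L803mts and 38.0, 36.6 and 38.4 FPKM in controls, a difference of 0.06. The WNT target genes gave 3 members of 14 at an unadjusted p under 0.05, all higher with L803mts, and a list median of -0.08. Rnf43, a ubiquitin ligase that removes WNT receptors, had 3.64, 3.32 and 2.76 FPKM with L803mts and 2.13, 1.82 and 1.80 FPKM in controls. Ccnd2, cyclin D2, had 21.2, 21 and 29.3 FPKM with L803mts and 18.1, 16.5 and 19.2 FPKM in controls. The groups were apart at both, with differences of 0.54 and 0.37. Lef1, a partner of β-catenin on DNA, overlapped between groups, with 5.01, 4.30 and 3.39 FPKM with L803mts and 1.34, 3.73 and 2.08 FPKM in controls. Apcdd1, a WNT inhibitor induced by WNT, lay the other way, with 6.61, 7.23 and 7.36 FPKM with L803mts and 7.73, 9.14 and 9.04 FPKM in controls.

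WNT ligands, receptors and transducers had 1 of 18 members at an unadjusted p under 0.05, and their median was 0.16. That member was Fzd4, a WNT and norrin receptor of brain vessels, with 3.64, 4.21 and 4.44 FPKM with L803mts and 3.57, 1.91 and 1.84 FPKM in controls. Among 7 members that inhibit or enhance WNT signalling 0 did so, and the median was -0.23. Within that list the R-spondins, which raise WNT receptor levels, pointed in opposite directions: Rspo2 had a difference of 0.19 and Rspo3 one of -0.27, both with non-overlapping groups. Upstream kinases and phosphatases of GSK3 had 1 of 21, which was Sgk1, and a median of 0.05. Of 21 GSK3 substrates 0 reached that p, with a median of 0.11. Dpysl2, which encodes the microtubule-binding substrate CRMP2, had 118, 106 and 133 FPKM with L803mts and 105, 101 and 105 FPKM in controls.

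Pathways that GSK3 touches through other substrates gave medians near that of all members. Glycogen metabolism, named for the kinase's first substrate, had 0 of 23 members at an unadjusted p under 0.05 and a median of -0.01. The antioxidant genes of NRF2 had 0 of 15 and a median of -0.02. Lysosome and autophagy genes of TFEB had 1 of 29, lower with L803mts, and a median of 0.00. Genes of mTOR and translation control had 1 of 25, higher with L803mts, and a median of 0.11. That gene was Ddit4, an inhibitor of mTOR complex 1 that stress and glucocorticoids induce, with 8.57, 7.52 and 12.7 FPKM with L803mts and 4.27, 4.06 and 5.07 FPKM in controls. Its groups were apart, with a difference of 0.93 (limma unadjusted p = 0.00164, adjusted p = 0.764).

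Glucocorticoid response genes, the class of Sgk1, Cdkn1a and Ddit4, had those 3 of 21 members at an unadjusted p under 0.05, all higher with L803mts, and a median of 0.15. At 5 of the 21 the groups did not overlap, all on the higher side, against 5.83% of all members. The 2 most abundant members of the list had overlapping groups: Klf9 averaged 98.2 ± 5.10 FPKM with L803mts and 104 ± 8.55 FPKM in controls, and Mt1 averaged 77.1 ± 8.01 FPKM with L803mts and 90.6 ± 27.4 FPKM in controls (SD, n = 3 each). Circadian clock genes had 1 of 20 at that p and a median of 0.16. Insulin-like growth factor genes had 2 of 14 and a median of 0.18. Both, Igf2 and its binding protein gene Igfbp2, had overlapping groups: Igf2 had 3.12, 4.12 and 7.06 FPKM with L803mts and 3.38, 1.69 and 1.06 FPKM in controls.

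Activity-induced genes, which neurons switch on within minutes of synaptic firing, leaned to higher values with L803mts. Of 19 immediate early transcription factors 4 reached an unadjusted p under 0.05 and 5 had non-overlapping groups, all higher, with a median of 0.31. Among all members 3.52% were higher at that p and 5.83% were higher with non-overlapping groups. Fos had 10.2, 7.62 and 9.47 FPKM with L803mts and 6.37, 5.88 and 5.81 FPKM in controls. Egr1 had 7.87, 4.84 and 20.1 FPKM with L803mts and 3.01, 3.99 and 3.43 FPKM in controls, and its difference of 1.21 was 0.69 without L803mts 3, the highest library. Egr2 had 1.79, 1.23 and 2.82 FPKM with L803mts and 1.06, 0.408 and 0.721 FPKM in controls. In all 3 genes the groups were apart and the adjusted p was 0.764. The mean of the list on log2(FPKM + 1) was 2.80, 2.63 and 3.2 in the L803mts libraries and 2.49, 2.53 and 2.61 in the control libraries, and without L803mts 3 the median difference was 0.19 with 2 of 19 members at that p.

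Downstream activity genes had 5 of 30 members at an unadjusted p under 0.05, all higher, 8 members apart on the higher and 1 on the lower side, and a median of 0.09. Over all members the groups were apart at 5.83% on the higher and 6.74% on the lower side. Arc, an effector of AMPA receptor endocytosis, had 26.6, 24.0 and 37.9 FPKM with L803mts and 14.1, 17.7 and 22.5 FPKM in controls. Trib1, a pseudokinase, had 4.06, 6.40 and 5.65 FPKM with L803mts and 2.32, 1.83 and 3.60 FPKM in controls. Dusp5, an ERK phosphatase, had 7.25, 8.71 and 12.6 FPKM with L803mts and 5.94, 6.34 and 7.24 FPKM in controls, so the groups barely separated. Vgf, a neuropeptide precursor, overlapped, with 20.0, 13.1 and 23.1 FPKM with L803mts and 7.06, 8.31 and 13.3 FPKM in controls. The Trib1 and Vgf loci were short, at 718 and 537 bases. The list median was 0.01 without control 1. Neuropeptide and BDNF genes as a whole had 2 of 25 members at that p and a median of 0.03.

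**Figure D4:**
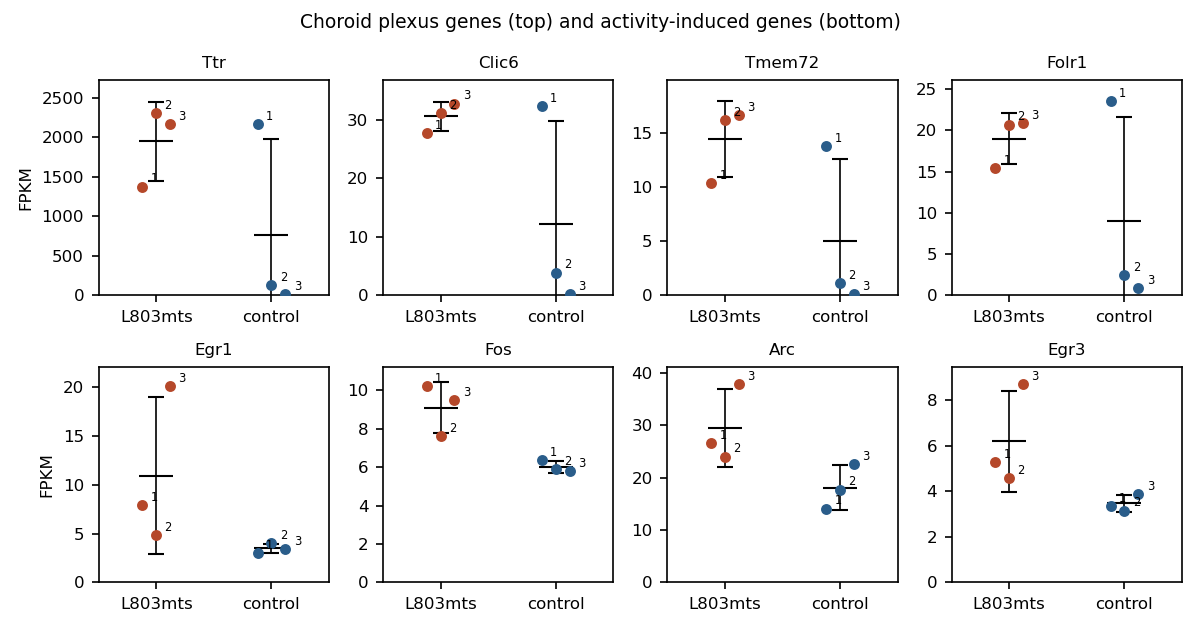
FPKM by library (points, numbered by replicate) with the mean and SD of each group, for 4 choroid plexus genes (top row) and 4 activity-induced genes (bottom row). Each axis starts at 0. In the top row control 1 lies among the L803mts libraries, at 2162 FPKM for Ttr, while controls 2 and 3 are at 126 and 16.2 FPKM. In the bottom row the groups are apart, with L803mts 3 the highest at Egr1, Arc and Egr3.

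Choroid plexus genes gave the largest differences and the largest spread within a group. The choroid plexus is the secretory tissue of the ventricles that lies against the hippocampus. Ttr, its transthyretin gene, had 1376, 2308 and 2164 FPKM in L803mts libraries and 2162, 126 and 16.2 FPKM in control libraries. Control 1 therefore sat inside the L803mts range while controls 2 and 3 were far below it, and the difference of 3.50 had a 95% interval of 0.23 to 6.77. All 25 members of the list had a higher mean with L803mts, 10 of them at an unadjusted p under 0.05, and the median was 1.31, but 0 of 25 had groups that did not overlap. The list mean on log2(FPKM + 1) was 3.64, 4.26 and 4.25 in L803mts libraries and 4.31, 2.05 and 1.47 in control libraries. Enpp2, the autotaxin gene of the same cells, had 433, 734 and 621 FPKM with L803mts and 834, 112 and 68.2 FPKM in controls. Of the other defining markers, Clic6 had 27.8, 31.2 and 32.8 FPKM with L803mts and 32.4, 3.86 and 0.256 FPKM in controls, and Oca2 was listed at 0 in controls 2 and 3.

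Without control 1 the choroid plexus list had 24 of 25 members at an unadjusted p under 0.05, 10 of them called, and a median of 2.28. Without control 3 the median was 0.82 with 0 at that p. Ependymal and cilia genes, from the lining of the same ventricles, had 2 of 19 members at that p and a median of 0.26, with list means of 2.84, 2.82 and 2.55 with L803mts and 2.87, 2.21 and 2.20 in controls. Igfbp2, which the choroid plexus also makes, followed the same order, with 25.1, 29.6 and 34.9 FPKM with L803mts and 28.0, 9.11 and 9.11 FPKM in controls.

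Fibroblast and meningeal genes differed from the choroid plexus list in that control 1 stayed with the other controls. Their list had 39 members, with 10 higher and 1 lower at an unadjusted p under 0.05, 11 apart on the higher and 1 on the lower side, and a median of 0.34. The shares of all members with groups apart were 5.83% on the higher and 6.74% on the lower side. The list mean on log2(FPKM + 1) was 3.15, 2.98 and 3.01 in L803mts libraries and 2.78, 2.73 and 2.67 in control libraries, and those ranges did not overlap. Besides Aebp1 and Fmod, Mgp, a matrix inhibitor of calcification, had 18.5, 17.9 and 18.6 FPKM with L803mts and 13.9, 12.3 and 11.4 FPKM in controls. Ogn, the proteoglycan osteoglycin, had 16.9, 17.4 and 16 FPKM with L803mts and 14.7, 12.7 and 9.05 FPKM in controls. Bmp6, a ligand of the TGF-β family, had 3.33, 2.09 and 2.47 FPKM with L803mts and 1.04, 1.18 and 0 FPKM in controls. Groups were apart at all of these. The median of the list lay between 0.26 and 0.39 when any 1 library was left out. The 1 lower member was Nov, which hippocampal pyramidal cells also make, with 44.0, 48.1 and 38.3 FPKM with L803mts and 50.0, 51.7 and 57.7 FPKM in controls. Ptgds, a prostaglandin D synthase of the meninges and the most abundant member, overlapped between groups, with 645, 478 and 434 FPKM with L803mts and 349, 480.2 and 312 FPKM in controls. Igf2 and Igfbp2 are counted in this list too.

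Collagens and laminins, the fibres and basement membranes of vessels and meninges, had 5 of 26 members at an unadjusted p under 0.05, all higher, and a median of 0.28. Nid2, a basement membrane linker, had 2.84, 1.15 and 2.41 FPKM with L803mts and 0.629, 0.741 and 0.946 FPKM in controls. Col11a1 had 7.96, 8.16 and 8.78 FPKM with L803mts and 5.93, 6.41 and 6.33 FPKM in controls. The 5 members on the higher side that did not overlap between groups compare with 5.83% of all members. The part of meningeal or vessel tissue in these values was not tested.

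Vascular cell lists gave smaller medians. Endothelial genes had 5 of 29 members at an unadjusted p under 0.05, all higher, and a median of 0.05. Beside Plxdc1 these were Nos3, Ocln, Flt1 and Lef1. Flt1, a receptor for VEGF, had 5.01, 4.18 and 7.10 FPKM with L803mts and 3.10, 3.59 and 3.28 FPKM in controls, and Ocln, the tight junction protein occludin, had 7.27, 12.3 and 9.98 FPKM with L803mts and 7.24, 5.41 and 5.46 FPKM in controls. Pericyte and smooth muscle genes had 1 of 14, which was Acta2, and a median of 0.08. The 3 blood members had 1 at that p, the joint locus of Hba-a1 and Hba-a2, and a median of 0.06.

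**Figure D5:**
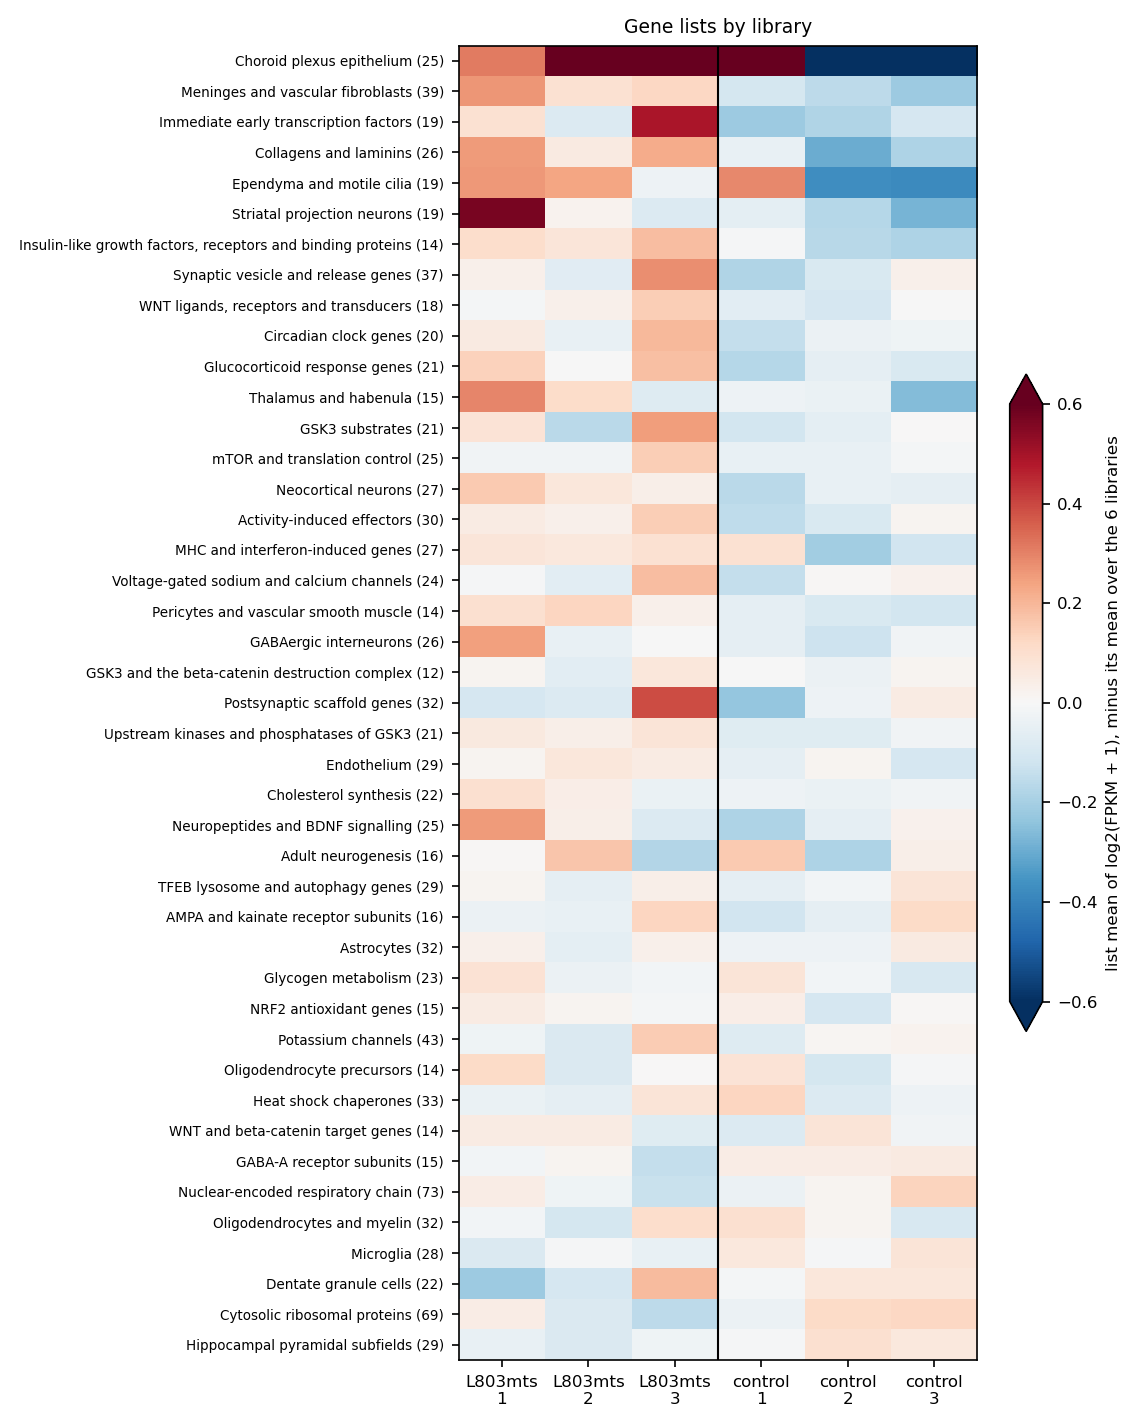
Each row is a gene list with at least 10 members (their number in brackets), each column a library, and colour gives the list mean of log2(FPKM + 1) minus its mean over the 6 libraries, with the scale ending where the bar does. Lists run from the highest median difference (L803mts minus control) at the top to the lowest at the bottom. Choroid plexus genes are high in the 3 L803mts libraries and control 1, fibroblast genes are higher in the 3 L803mts libraries than in the controls (3.15, 2.98 and 3.01 against 2.78, 2.73 and 2.67), and immediate early genes are highest in L803mts 3.

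Synaptic vesicle genes, which store and release transmitter, had 6 of 37 members at an unadjusted p under 0.05, all higher with L803mts, and a median of 0.17. Syp, synaptophysin, had 391, 342 and 551 FPKM with L803mts and 265, 273 and 315 FPKM in controls. Slc32a1, the vesicular GABA transporter, had 4.91, 2.38 and 6.33 FPKM with L803mts and 1.81, 1.21 and 1.64 FPKM in controls. Groups were apart at both, with replicate 3 the highest. Without L803mts 3 the list had 2 members at that p and a median of 0.05. The 2 most abundant members overlapped between groups: Snap25, a subunit of the fusion machinery, averaged 1455 ± 185 FPKM with L803mts and 1464 ± 257 FPKM in controls, and Syt1, the calcium sensor of release, averaged 464 ± 13.4 FPKM with L803mts and 465 ± 28.4 FPKM in controls (SD, n = 3 each).

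Glutamate receptor genes showed little. NMDA receptor genes had 0 of 6 members at an unadjusted p under 0.05 and a median of 0.03. AMPA and kainate receptor genes had 1 of 16, higher with L803mts, and a median of 0.00. The 1 was Grik3, a kainate receptor subunit, with 8.08, 6.77 and 8.44 FPKM with L803mts and 5.23, 4.98 and 5.82 FPKM in controls. Metabotropic receptor genes had 1 higher and 1 lower of 7 and a median of -0.06. Grm4, a presynaptic receptor, had 2.14, 1.60 and 2.03 FPKM with L803mts and 0.671, 1.15 and 0.278 FPKM in controls, with the groups apart. Postsynaptic scaffold genes had 1 of 32, higher, and a median of 0.06. Of the abundant subunits, Gria2 had 516, 565 and 453 FPKM with L803mts and 579, 569 and 613 FPKM in controls, while Gria1 had 233, 213 and 307 FPKM with L803mts and 233, 220.5 and 286 FPKM in controls. The groups lay close at Gria2 without overlapping, and overlapped at Gria1.

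A list made up mainly of GABA-A receptor genes, the chloride channels of fast inhibition, lay mostly below control. The list also names the GABA-B receptor genes Gabbr1 and Gabbr2 and the scaffold gene Gphn, so its counts are not of channel subunits alone. Of 15 members 3 had a higher mean with L803mts, 5 had non-overlapping groups on the lower and 1 on the higher side, and the median was -0.11. For all members the shares without overlap were 6.74% on the lower and 5.83% on the higher side. Gabra5, the subunit of tonic inhibition in hippocampal pyramidal cells, had 69.3, 81.8 and 72 FPKM with L803mts and 85.1, 93.7 and 104 FPKM in controls, a difference of -0.34 (limma unadjusted p = 0.0180, adjusted p = 0.764). Gabra3 went the other way, with 29.2, 23.7 and 23.2 FPKM with L803mts and 20.7, 18.5 and 20.8 FPKM in controls. Both pairs of groups were apart, and these were the only 2 of the list at an unadjusted p under 0.05.

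Potassium channel genes, which set resting potential and repolarise neurons, had 3 higher and 2 lower of 43 members at an unadjusted p under 0.05 and a median of -0.02. Kcnj2, an inward rectifier, had 7.65, 8.35 and 7.38 FPKM with L803mts and 13.2, 14.5 and 10.1 FPKM in controls, a difference of -0.62. Kcnt1, a sodium-activated channel, had 21.7, 17.5 and 17.9 FPKM with L803mts and 14.6, 12.8 and 11.1 FPKM in controls, a difference of 0.54. Kcnj10, the main potassium channel of astrocytes, had 19.2, 15.9 and 26.4 FPKM with L803mts and 14.3, 15 and 13.4 FPKM in controls. The groups were apart at all 3. Voltage-gated sodium and calcium channel genes had 0 of 24 at that p and a median of 0.08.

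Pyramidal subfield genes had 0 higher and 3 lower of 29 members at an unadjusted p under 0.05, 0 and 6 with non-overlapping groups, and a median of -0.16. Non-overlapping groups on the lower side were found at 6.74% of all members. Spink8, a marker of CA1, had 18.5, 20.4 and 24.3 FPKM with L803mts and 26.4, 25 and 32.4 FPKM in controls. Neurod6, given above, was lower in every L803mts library than in every control library. Dentate granule cell genes had 1 higher and 2 lower of 22 and a median of -0.13. Their list means on log2(FPKM + 1) overlapped, at 3.61, 3.73 and 4.02 with L803mts and 3.82, 3.90 and 3.90 in controls. The dentate median was -0.01 without L803mts 1, and without L803mts 3 it was -0.24 with 6 members lower. Among them Tdo2, a tryptophan-degrading enzyme, had 8.77, 12.4 and 12.1 FPKM with L803mts and 16.2, 17 and 15.5 FPKM in controls. Adult neurogenesis genes had 1 of 16, lower, and a median of 0.03.

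Neocortical genes had 6 higher and 1 lower of 27 members at an unadjusted p under 0.05, 7 and 2 with non-overlapping groups, and a median of 0.10, which was 0.05 without control 1. All members had non-overlapping groups at 5.83% on the higher and 6.74% on the lower side. Ctgf, a marker of deep cortical layers, had 13.6, 10.4 and 8.39 FPKM with L803mts and 4.73, 7.41 and 6.39 FPKM in controls, while Crym, which encodes a thyroid hormone-binding protein, had 45.6, 64.9 and 59.2 FPKM with L803mts and 76.9, 67.4 and 78.9 FPKM in controls. Striatal projection neuron genes had 2 of 19, both higher, and a median of 0.23, which was 0.09 without L803mts 1. Ppp1r1b, the dopamine-regulated phosphatase inhibitor DARPP-32, had 18.1, 16.8 and 28.7 FPKM with L803mts and 12.3, 4.86 and 5.77 FPKM in controls. The striatal list mean on log2(FPKM + 1) was highest in L803mts 1, at 4.05, 3.50 and 3.40 with L803mts and 3.42, 3.31 and 3.2 in controls. Thalamic and habenular genes had 1 of 15, 0 with non-overlapping groups, and a median of 0.12, which was 0.04 without L803mts 2. Genes of amygdala, hypothalamus and septum had 0 of 6 and a median of 0.05, which was -0.16 without L803mts 1 and -0.12 without control 2. The part of dissection in the neuronal values was not tested.

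Glial and immune lists had medians between -0.13 and 0.09. Astrocyte genes had 1 higher and 1 lower of 32 members at an unadjusted p under 0.05 and a median of 0.00. Gja1, the gap junction protein connexin 43, had 125, 114 and 146 FPKM with L803mts and 104, 106 and 99.0 FPKM in controls, and Id3, an inhibitor of bHLH factors, had 4.47, 7.36 and 7.45 FPKM with L803mts and 8.31, 8.58 and 10.5 FPKM in controls. Oligodendrocyte and myelin genes had 1 higher and 2 lower of 32 and a median of -0.12, with Mbp at 487, 404 and 552 FPKM with L803mts and 500.3, 515 and 492 FPKM in controls and Mal at 179, 174 and 157 FPKM with L803mts and 228, 230.5 and 183 FPKM in controls. Oligodendrocyte precursor genes had 1 each way of 14 and a median of -0.03. Microglial genes had 2 of 28, both lower, and a median of -0.13. Ly86, a partner of the RP105 receptor in microglia, had 5.04, 4.70 and 4.86 FPKM with L803mts and 6.56, 7.12 and 6.57 FPKM in controls. MHC and interferon-induced genes had 4 of 27, all higher, and a median of 0.09, with the peptide transporter gene Tap2 at 4.12, 2.92 and 3.25 FPKM with L803mts and 1.54, 2.04 and 2.03 FPKM in controls. GABAergic interneuron genes had 3 of 26, all higher, and a median of 0.08.

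Ribosomal protein genes had a higher mean with L803mts at only 10 of 69 members. At an unadjusted p under 0.05 there were 0 higher and 4 lower, and 11 members did not overlap between groups on the lower side against 1 on the higher. Across all members 6.74% did not overlap on the lower and 5.83% on the higher side. The list median was -0.14, and the list mean on log2(FPKM + 1) was 4.79, 4.66 and 4.59 in L803mts libraries and 4.71, 4.86 and 4.87 in control libraries, which overlap. Rps24, among the most abundant, had 1270.2, 1087 and 930.4 FPKM with L803mts and 1297, 1313 and 1432 FPKM in controls. Rps3a had 45.7, 44.3 and 39.0 FPKM with L803mts and 53.3, 51.5 and 48.6 FPKM in controls. Ribosomal mRNAs have many processed pseudogene copies in the mouse genome, so reads may be divided among loci and these levels are uncertain. Without L803mts 3 the list had 0 members at that p and a median of -0.08.

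Respiratory chain genes encoded in the nucleus had 13 of 73 members with a higher mean with L803mts, 0 higher and 1 lower at an unadjusted p under 0.05, and a median of -0.11. The 1 was Ndufc2, a complex I subunit, with 132, 129 and 113 FPKM with L803mts and 134, 159 and 153 FPKM in controls. Heat shock chaperone genes had 1 of 33, higher, and a median of -0.04, with Hsp90ab1 at 441, 379.9 and 778 FPKM with L803mts and 339, 327 and 384 FPKM in controls, and cholesterol synthesis genes 0 of 22 and a median of 0.04. Small non-coding and histone loci had 0 of 8 and a median of -0.04, and the 4 Y-linked genes a median of -0.15. By locus type, snoRNA loci stood furthest from the rest, with 0 higher and 8 lower of 36 members at that p, or 22.2%, and a median of -0.19. Mixed loci had 32 higher and 58 lower of 1435 and a median of -0.06, and intronic loci 10 higher and 11 lower of 469 and a median of -0.08. Differences between locus types were not tested.

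The members with the largest differences were not those of smallest p. On the higher side the 5 largest differences were those of Ttr, Clic6, Gps1, Birc5 and Tmem72. Birc5, the mitotic protein survivin, had 2.34, 10.0 and 12.8 FPKM with L803mts and 1.30, 0 and 1.20 FPKM in controls. On the lower side, Adamts20 had 0.716, 0.706 and 1.36 FPKM with L803mts and 1.78, 49.0 and 2.60 FPKM in controls, and its difference of -2.06 was -0.73 without control 2. Fam151b at a locus of 212 bases, the antisense locus Gm17004, Pik3r6 and the miRNA locus AC117644.3 completed that side, with 1 or more L803mts libraries at 2.83 FPKM or less in each. Controls were low at some of them too. Gm17004 and Pik3r6 were listed at 0 in control 2, and Fam151b had 1.71 FPKM in control 1 against 3.81 FPKM in L803mts 2. AC117644.3 had 58.8, 2.83 and 52.3 FPKM with L803mts and 66.4, 67.0 and 81.8 FPKM in controls. Its difference of -1.65 was -0.36 without L803mts 2. Besides those already named, members that differed at least 2-fold with the groups apart included Foxp2, a transcription factor of deep cortical and striatal neurons, with 3.53, 1.52 and 0.996 FPKM with L803mts and 0.459, 0.262 and 0 FPKM in controls. C1s, a complement protease, had 2.55, 4.69 and 3.04 FPKM with L803mts and 2.34, 0.430 and 0.796 FPKM in controls. Phtf2 was lower, with 14.6, 24.3 and 9.49 FPKM with L803mts and 33.9, 40.7 and 28.2 FPKM in controls. The others were Bcorl1, Nfix, Myh14, Krt8, Hmmr, Ttyh3, Wdr54, Trappc6a, loci in Tmem63b, Bai1 and Abhd14b on the higher side, and Ano5, AI115009 and Gm17325 on the lower. The loci of Nfix, Hmmr, Ttyh3, Wdr54 and Trappc6a were short, at 564, 639, 740, 428 and 866 bases.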

How the data were processed

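Total RNA of hippocampus was made into poly(A)-selected directional libraries, per the labels' protocols. TopHat2 2.0.9, Cufflinks and Cuffdiff and the build NCBIM37 are named in the submitters' processing notes, which also list GRCh37. The authors deposited FPKM per locus and library. FPKM keep no read counts, so the read depth is unknown and counting error cannot be given. The 3 tables of the series were normalised separately, so tests ran within the L803mts table. Values were taken as log2(FPKM + 1) and tested with limma 3.58.1 (R 4.3.3, trend in the variance) over all loci, with Benjamini-Hochberg adjustment. The authors' fold changes, p-values and false discovery rates were not used. The fit was also run on simulated data, with differences far larger than those of most members. That run does not show how often differences of the size seen here would be called.

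Genes were named by rule: Gsk3a, Gsk3b, Ctnnb1 and Axin2, the 15 members of smallest p and the 5 of largest difference in each direction, members at least 2-fold apart, and the most abundant members of each list. All other genes were picked for the text with their values known. The members and the 51 gene lists were chosen with earlier results of these data known. The libraries were not treated as pairs by replicate number, except in the replicate block given below. GC content and length came from GENCODE M21. A few named members are not reported here.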

Additional observations from a re-analysis of the deposited data

How the results depend on the processing

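The 9 alternatives that kept all libraries gave 0 calls, with a smallest adjusted p between 0.151 and 0.392. Leaving out 1 library gave between 0 and 22 called members, between 355 and 744 higher and between 196 and 649 lower at an unadjusted p under 0.05. A fit over loci of at least 5 FPKM gave 289 higher and 306 lower against 541 and 380, over fewer loci. With a replicate block the counts were 0 called, 749 higher and 502 lower. Same-numbered libraries deviated together with correlations of 0.00, 0.02 and 0.18, and not every library correlated best with its own number. The main fit therefore did not pair them, but these correlations cannot exclude that they were handled in pairs. When 1 library was left out, the small differences of the joint Axin2 and Ccdc46 locus (-0.04 to 0.19), Ctnnb1 (-0.14 to 0.02) and Gsk3b (-0.01 to 0.16) changed sign. They did so without L803mts 1 at the joint locus, without L803mts 3 or control 3 at Ctnnb1, at 0.00 and 0.02, and without L803mts 3 at Gsk3b. The cause was not tested. Over all settings 38 list medians moved by more than the spread between libraries and 712 did not. FPKM without counts, 3 libraries a group and no statement of separate mice limit the precision.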

Other observations

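Some genes of smallest p were set beside 2 other comparisons of the series, a small interfering RNA against Gsk3b (siGSK3b) and ketamine. Kcnj2, Fos, F5 and Kcne2 were added with their values known. Each comparison was read from its own table with limma. All 3 comparisons share the control libraries, so likeness between comparisons is no independent result. Each table was normalised on its own, but a control library's FPKM differed between tables by gene. In the L803mts, siGSK3b and ketamine tables, control 2 had 17.5, 17.3 and 17.5 FPKM at Gsk3b. At Acta2 it had 14.2, 21.6 and 8.57 FPKM. A single scaling of the library cannot give both. Gsk3b, the gene the siRNA is directed against, averaged 18.9 FPKM with siGSK3b and 17.7 FPKM in controls. The difference was 0.09, with every siGSK3b library above every control library. A lowering of the Gsk3b mRNA by the siRNA is therefore not seen in these values. Whether a gene symbol stood for the same locus in each table was not tested.

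Sgk1, the AKT-related kinase gene, had 38.7, 35.8 and 35.1 FPKM with siGSK3b and 24.7, 24.9 and 21.3 FPKM in controls, a difference of 0.61 with the groups apart (limma adjusted p = 0.504). With ketamine it had 18.6, 26.1 and 31.9 FPKM, against 22.5, 21.1 and 18.6 FPKM in controls, which overlap. Kcnj2, the inward rectifier gene, had 6.66, 5.41 and 7.63 FPKM with siGSK3b and 11.7, 12.9 and 9.39 FPKM in controls, again apart, and its difference with ketamine was -0.21. The short Alg6 locus was lower and apart in both, with differences of -0.81 with siGSK3b and -1.0 with ketamine.

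Rerg differed by 0.35 with siGSK3b and 0.14 with ketamine, and Pcolce by 0.46 and 0.08. Fmod was lower with siGSK3b, at 0.452, 0.237 and 0.764 FPKM, against 1.31, 1.30 and 0.916 FPKM in controls. Acta2 differed by -0.26 with siGSK3b, and with ketamine by 0.66, with the groups apart. Its difference with L803mts was 0.65, but its control values differed between tables, so these may not be values of 1 locus. With ketamine 4430402I18Rik was lower and apart at -0.43, and with siGSK3b Pdia5 was lower and apart at -1.08. Fos differed by -0.08 with siGSK3b and was lower with ketamine, at 7.58, 5.19 and 3.76 FPKM, against 11.9, 10.0 and 8.65 FPKM in controls. The control values of Fos also differed between tables, with control 1 at 15.8 FPKM in the siGSK3b table and 11.9 FPKM in the ketamine table. The Fos values may therefore not be of 1 locus either. F5 and Kcne2 of the choroid plexus list were high in control 1 and low in controls 2 and 3 here too. F5 had 14.2, 28.3 and 17.4 FPKM with siGSK3b and 18.1, 0.958 and 0.524 FPKM in controls. With ketamine it had 16.6, 17.2 and 8.97 FPKM, against 12.1, 0.625 and 0.338 FPKM. Kcne2 had 19.8, 27.4 and 26.3 FPKM with siGSK3b, against 27.7, 1.69 and 0.350 FPKM in controls. With ketamine Kcne2 had 26.3, 23.5 and 2.67 FPKM. Whether these differences differ between the comparisons was not tested.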
